A study of Mus musculus with 2 samples.

Results

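Mature oligodendrocytes that carried RNA of C4b or Serpina3n are described here, in the lateral striatum of young mice after a stroke. A droplet barcode, read as a cell, was a member if it passed 4 conditions on its UMIs (unique molecular identifiers, each standing for a captured RNA molecule). It had at least 500 detected genes and at most 15% mitochondrial UMIs. It had at least 40 UMIs of the myelin genes Mobp, Mog and Mal per 10000 UMIs, and at least 1 UMI of C4b or Serpina3n. Of 4841 barcodes in the series, 428 were members, 361 in the ipsilateral and 67 in the contralateral library. They are called positive cells. Mature cells that passed the same gate with 0 UMIs of both genes are called negative cells and numbered 706 ipsilaterally and 531 contralaterally. The cells were thus chosen by their measured UMIs of C4b, Serpina3n, Mobp, Mog and Mal, and values of those genes are given only as description.

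The animals were male C57/BL6 mice. Each had the middle cerebral artery occluded for 60 minutes at postnatal day 10 and was studied after 2 weeks of reperfusion. The ipsilateral library came from the lateral striatum of the occluded side and the contralateral library from the opposite side of operated mice, so neither is from an animal without surgery. Sorting kept cells with A2B5 or O4, surface antigens of the oligodendrocyte lineage, and striata of 3 animals were pooled into 1 library per side. There is therefore no replicate check and no test: intervals are 95% intervals for counting error alone, and differences between libraries cannot be told apart from differences between preparations. The ipsilateral library held 2775 barcodes and 54788795 UMIs, and the contralateral library 2066 barcodes and 36063045 UMIs. No barcode sequence was shared between them.

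Oligodendrocytes wrap axons in myelin, a membrane rich in cholesterol that these cells largely make themselves. C4b encodes complement component C4, which is cleaved in the classical complement pathway to tag surfaces for removal. Serpina3n encodes a secreted inhibitor of serine proteases that is known as an acute-phase protein. In mouse models of demyelination and neurodegeneration, oligodendrocytes with both transcripts are known as disease-associated oligodendrocytes, often with MHC class I, Il33, Klk6 and Apoe. The lists of genes used here are textbook or published groups of this kind, and the members were already known to differ in these libraries when the lists were drawn up.

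Positive cells were a larger share of mature cells in the ipsilateral library. They were 33.8% of 1067 mature ipsilateral cells (31.0 to 36.8) and 11.2% of 598 mature contralateral cells (8.79 to 14.0). Median depth was close, at 29117 UMIs in mature ipsilateral and 28163 UMIs in mature contralateral cells. With every cell thinned to 10000 UMIs the shares were 22.9% (20.4 to 25.6) ipsilaterally and 3.95% (2.52 to 5.87) contralaterally. Free RNA can give such UMIs to cells that do not make the transcript. In cells gated on neuroblast genes, which should lack both, the share at their own depth was 4.62% (2.88 to 6.97) ipsilaterally and 0.586% contralaterally, at medians of 12240 and 11829.5 UMIs. Thinned to 10000 UMIs, the neuroblast share was 2.53% (1.02 to 5.14) ipsilaterally and 0.664% (0.0806 to 2.38) contralaterally. In each library the interval of mature cells lay above that of the neuroblast-gated cells, by little in the contralateral library.

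The side difference lay mostly in cells with many UMIs of the pair. Cells with 1 UMI were 12.1% of mature cells ipsilaterally (129 cells) and 8.70% contralaterally (52 cells), and their intervals overlapped. Cells with 2 to 4 UMIs were 8.34% ipsilaterally (89 cells) and 2.34% contralaterally (14 cells). Cells with 5 or more UMIs were 13.4% ipsilaterally (143 cells, 11.4 to 15.6) and 0.167% contralaterally (1 cell, 0.00423 to 0.928). That contralateral cell held 129130 UMIs in all and exceeded the limit for markers of another cell type given further on. The ipsilateral cells with 5 or more UMIs held 88.5% of the 3237 UMIs of the pair in positive cells, and the 37 highest cells held 50.2%. The highest cell had 113 UMIs ipsilaterally and 10 contralaterally.

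**Figure D1:**
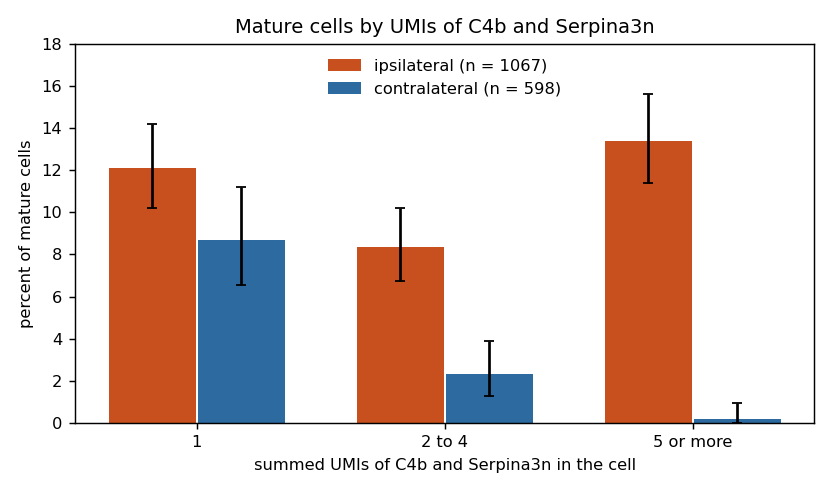
Percent of mature cells (y axis) with 1, 2 to 4, and 5 or more summed UMIs of C4b and Serpina3n (x axis), in the ipsilateral (left bars, n = 1067 cells) and contralateral library (right bars, n = 598 cells). Error bars are exact binomial 95% intervals; in the bin of 5 or more UMIs the bars stand at 13.4% and 0.167%.

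C4b was detected in more cells than Serpina3n, and in the ipsilateral library the pair was often found in the same cell. C4b was present in 27.1% of mature ipsilateral and 9.20% of mature contralateral cells. Serpina3n was present in 20.1% of mature ipsilateral and 2.51% of mature contralateral cells. Of mature ipsilateral cells with C4b, 49.5% (43.6 to 55.4) also held Serpina3n, against 9.25% (7.31 to 11.5) of those without C4b. On the contralateral side the same shares were 5.45% with C4b (1.14 to 15.1) and 2.21% without it (1.15 to 3.83), which overlapped. Among ipsilateral positive cells, 143 held both, 146 held C4b alone and 72 held Serpina3n alone. Both transcripts were present in 76.2% of the ipsilateral cells with 5 or more UMIs.

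The genes of the pair lie on different chromosomes. On the GRCm38 build C4b spans chr17:34728380-34743882 on the minus strand and Serpina3n spans chr12:104406729-104414329 on the plus strand. C4b has a close neighbour, C4a, and 48.3% of the 31-base words of C4b transcripts also occur in C4a, so reads from such stretches cannot be told apart. Serpina3n shares 21.6% of its words with other genes, 5.90% with Serpina3f, the gene with which it shares most. The paralogs Serpina3a, Serpina3b, Serpina3c, Serpina3f, Serpina3g, Serpina3i, Serpina3j, Serpina3k and Serpina3m had 0 UMIs in all 4 groups of mature cells.

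The mature identity of positive cells was checked on myelin genes outside the gate. Mbp, myelin basic protein, stood at 6140 CPM in positive and 6419 CPM in negative ipsilateral cells, where CPM is UMIs of the gene per 1000000 UMIs summed over the group. Cnp, an enzyme of the myelin sheath, stood at 7380 CPM in positive and 8412 CPM in negative cells. Depth and RNA quality were close, with medians of 28810 UMIs and 5.88% mitochondrial UMIs in positive cells and 29230.5 UMIs and 6.24% in negative cells. With ipsilateral mature cells split by depth into 3 parts of like size, the share of positive cells was 34.0%, 31.3% and 36.2% from the shallowest to the deepest. The gate genes themselves had medians of 173 UMIs per 10000 in positive and 206 in negative cells, and 145 in cells with 5 or more UMIs of the pair. Only 6 ipsilateral mature cells and no contralateral cell lay between 40 and 50 per 10000, just inside the gate, and 2 ipsilateral cells lay between 30 and 40, just outside it.

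Markers of other cell types were more common in positive cells. A cell is called mixed here if any of 7 marker lists (precursor, neuroblast and neuron, astrocyte, endothelial, microglia and macrophage, mural, fibroblast) exceeded 10 UMIs per 10000, with 1 precursor gene that mature cells also express left out of its list. Mixed cells were 17.2% of positive (13.4 to 21.5) and 8.50% of negative ipsilateral cells (6.55 to 10.8), and 23.9% of positive and 11.7% of negative contralateral cells. Among the ipsilateral bins they were 13.2% at 1 UMI, 23.6% at 2 to 4 UMIs and 16.8% at 5 or more UMIs. Doublet calls followed the same direction, at 49 positive (13.6%) and 39 negative ipsilateral cells (5.52%). The list behind most mixed cells was that of precursors, with 13.6% of positive and 7.37% of negative ipsilateral cells over the limit. Ratios that this changes are therefore given with and without mixed cells, and the part of mixed cells in a result was not tested further. Leaving them out lowers the marker lists that define them by construction. Microglia and macrophages, which can make complement, were nearly absent. Their list summed to 31.2 CPM in positive and 25.1 CPM in negative ipsilateral cells, between 0 and 2.01 UMIs per 10000 in single positive cells and between 0 and 9.22 in negative ones. Of its 19 genes 12 had a UMI in positive cells, and Ptprc, Mrc1, Tmem119, Aif1, Trem2, Csf1r and Ms4a7 were at 0.

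In the ipsilateral library positive cells had higher cytokine-response, MHC class I, lipid-carrier and Klk6 or Il33 transcripts than negative cells, and slightly lower cholesterol-synthesis transcripts. UMIs were summed per group, and ratios are log2 of positive over negative after adding 5 CPM to each, which draws ratios of low genes toward 0. Of 11105 genes with at least 50 UMIs, 58 were at least 2-fold higher (0.522% of genes) and 0 were at least 2-fold lower (0%). The median gene had a ratio of 0.06, and 67.0% of genes lay above 0. Without mixed cells 25 of 10297 genes were at least 2-fold higher (0.243%) and 0 lower, with a median of 0.01.

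The 15 largest ratios formed 2 sets. Il33, an alarmin of the interleukin-1 family, stood at 65.4 CPM (60.9 to 70.1) in positive and 10.1 CPM (8.73 to 11.5) in negative cells, a log2 ratio of 2.23 that was 2.37 without mixed cells. Apoe, a lipid carrier, stood at 843 CPM in positive and 209 CPM in negative cells (1.99, and 2.15 without mixed cells). Klk6, a secreted serine protease of oligodendrocytes, stood at 173 CPM in positive and 41.7 CPM in negative cells (1.93 and 2.15). Anxa2, a membrane-binding annexin, Socs3, Atf3, Cebpd, the nuclear RNA Neat1 and H2-D1 had ratios of 1.90, 1.61, 1.51, 1.43, 1.32 and 1.24, and between 1.40 and 1.91 without mixed cells. The other set of 6 genes had ratios between 0.04 and 0.43 without mixed cells. It held the cyclin Ccnd2, the histone Hist1h2ap, the neuronal and precursor genes Sox11, Ptprz1 and Tubb2b, and the growth factor Mdk, at 1.20 to 2.13 with all cells. A single cell held 30.8% of the positive Ccnd2 UMIs and 35.5% of those of Hist1h2ap, which also shares 93.4% of its words with other genes.

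The 15 smallest ratios were modest and changed little without mixed cells. Cxcl12, a chemokine, stood at 28.1 CPM in positive and 52.0 CPM in negative cells (-0.78, and -0.83 without mixed cells). Ctps, an enzyme of CTP synthesis, had a ratio of -0.62, the adhesion protein gene Tenm4 -0.56, Btbd16 -0.56, Arhgef19 -0.49 and Itih3 -0.48. Hmgcs1, which makes HMG-CoA for cholesterol synthesis, stood at 870 CPM in positive and 1195 CPM in negative cells (-0.46 and -0.41). Dubr, Ttyh1, Idi1, Serpinh1, Dab1, Plekha2, Sp7 and Slc25a38 had ratios between -0.46 and -0.39.

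Many of these differences were larger with more UMIs of the pair, in 2 shapes. Socs3 stood at 77.7, 132, 245 and 358 CPM in cells with 0, 1, 2 to 4, and 5 or more UMIs. Over the same bins Apoe had 209, 403, 603 and 1442 CPM. The levels of H2-D1 were 99.9, 138, 178 and 392 CPM. In summed level these genes were already higher at 1 UMI, where the counting intervals did not overlap those at 0. In thinned shares of cells with a UMI, Socs3 separated at 1 UMI too, at 42.4% (33.6 to 51.6) against 28.5% in negative cells (25.1 to 32.2). H2-D1, at 41.6% at 1 UMI and 35.6% in negative cells, and Apoe, at 56.0% at 1 UMI and 50.8% in negative cells, overlapped. Il33 in contrast stood at 10.1, 9.37, 24.4 and 150 CPM, Klk6 at 41.7, 26.7, 78.3 and 383 CPM, and Anxa2 at 1.85, 1.87, 4.46 and 50.4 CPM. Their summed levels were no higher at 1 UMI than at 0, and that of Klk6 was lower beyond counting error. The thinned share of cells with Klk6 was 17.6% at 1 UMI and 13.8% in negative cells, which overlap. For all 3, the highest level was at 5 or more UMIs. Hmgcs1 ran the other way, at 1195, 1027, 932 and 674 CPM, and Cxcl12 was near its level at 0 UMIs at 1 UMI and lower above it (52.0, 53.4, 11.6 and 16.3 CPM).

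**Figure D2:**
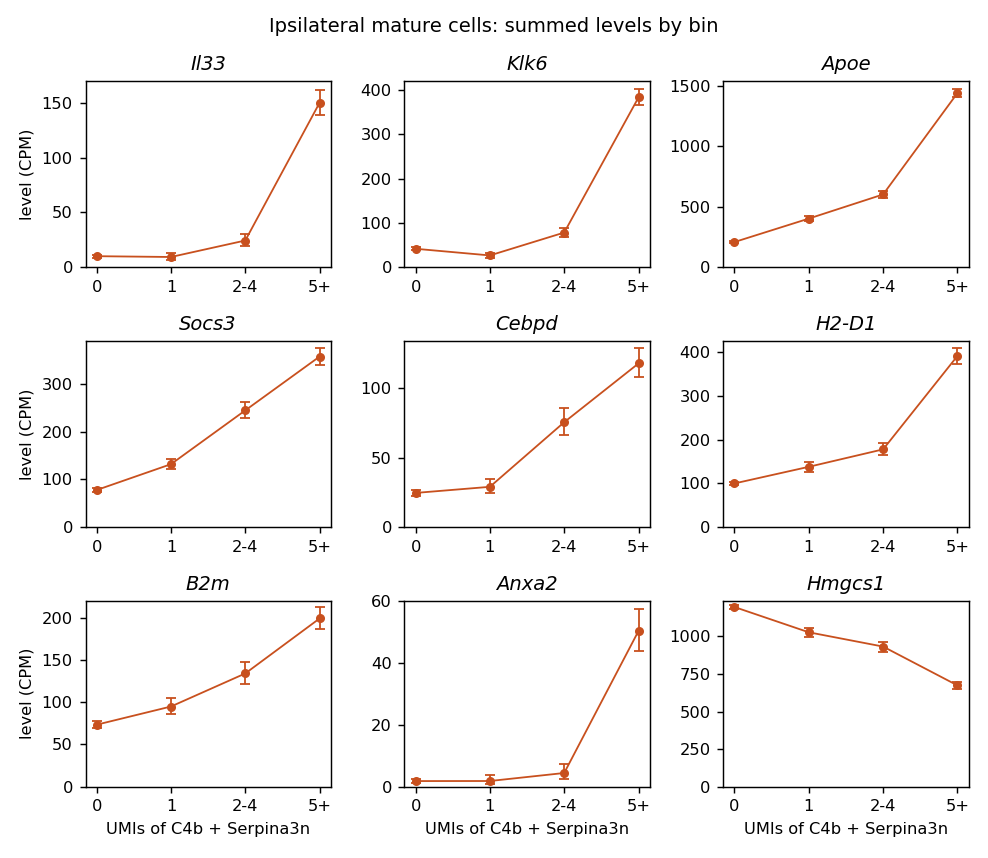
Level in CPM (y axis, linear, from 0) of 9 genes over ipsilateral mature cells with 0, 1, 2 to 4, and 5 or more UMIs of C4b and Serpina3n (x axis). Points are summed levels and error bars exact Poisson 95% intervals; Il33, Klk6 and Anxa2 stay low up to 1 UMI, Apoe, Socs3 and H2-D1 climb from 1 UMI on, and Hmgcs1 descends.

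Ratios of the leading genes over negative cells were largest at 5 or more UMIs. Of 10594 genes, 130 were at least 2-fold higher (1.23%) and 9 at least 2-fold lower (0.0850%), and without mixed cells 92 (0.921%) and 11 (0.110%) of 9986. At 2 to 4 UMIs, the bin with the largest share of mixed cells, 220 of 10541 genes were at least 2-fold higher (2.09%) and 1 lower (0.00949%). Without mixed cells 17 (0.172%) and 2 (0.0202%) of 9887 were. Il33 (3.36), Klk6 (3.05), Anxa2 (3.02) and Apoe (2.76) led again. Genes that entered the 15 largest only here included Fxyd1 and Fxyd7, regulators of the sodium pump, at 31.8 and 24.6 CPM at 5 or more UMIs, against 1.51 and 0.777 CPM in negative cells. Emp3, a membrane protein, stood at 26.4 CPM at 5 or more UMIs, against 0.583 CPM in negative cells. Snx10, Vamp5 and Vamp8, which act in vesicle traffic, had ratios of 2.05, 1.77 and 1.75. Among the lower genes were Itih3 (-1.28), Tenm4 (-1.18), Ttyh1 (-1.08) and the synaptic vesicle gene Synpr (-1.05), with Cxcl12 at -1.42.

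The interleukin-6 family of cytokines signals through the receptor subunit Il6st and Jak kinases to the transcription factor STAT3. In positive cells 2 genes of this list were at least 2-fold higher. The feedback inhibitor Socs3 and the transcription factor Cebpd, both induced by STAT3, were these genes. Socs3 stood at 247 CPM (238 to 256) in positive and 77.7 CPM (73.9 to 81.6) in negative cells. Cebpd stood at 74.8 CPM (70.0 to 79.9) in positive and 24.6 CPM (22.5 to 26.8) in negative cells. Fosl2 (0.88), Cebpb (0.79), Myc (0.67) and Pim1 (0.55) came next, and without mixed cells they were 0.94, 0.46, 0.18 and -0.04. Stat3 itself stood at 85.6 CPM in positive and 61.2 CPM in negative cells (0.45). The receptor subunits Il6st, Lifr and Cntfr had ratios of 0.06, -0.11 and -0.08. Of 17 measured members 15 lay above 0, with a median of 0.45, and the median was 0.31 without mixed cells.

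MHC class I transcripts were higher in positive cells through the heavy chains and beta-2 microglobulin. H2-D1, a heavy chain, stood at 243 CPM (234 to 252) in positive and 99.9 CPM (95.7 to 104) in negative cells. H2-K1 stood at 52.5 CPM in positive and 22.1 CPM in negative cells (1.09), and B2m, the light chain, at 144 CPM in positive and 73.4 CPM in negative cells (0.93, and 1.11 without mixed cells). H2-T23 (0.64), H2-Q4 (0.54) and the peptide-loading factor Tapbp (0.32) followed. H2-D1 shares 26.7% of its words with other genes, 13.8% with H2-K1, and H2-K1 shares 22.8%, 11.1% with H2-D1. All 16 measured members lay above 0, with a median of 0.26, against 12 of 14 and 0.18 without mixed cells. The chaperones Calr, Canx and Pdia3 lay between 0.01 and 0.06.

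Interferon-response genes were higher by small amounts across the list. Of 26 measured members 25 lay above 0, with a median of 0.39 and 0 at least 2-fold higher. The median was 0.43 without mixed cells, where Ifi27l2a alone was at least 2-fold higher (1.26). Ifi27l2a stood at 96.7 CPM (91.3 to 102) in positive and 49.7 CPM (46.7 to 52.8) in negative cells (0.90), and 18.6% of its positive UMIs came from 1 cell. Bst2, which tethers virus particles, stood at 13.2 CPM in positive and 4.96 CPM in negative cells (0.87). The GTPase gene Irgm1 (0.86), Ifit1 (0.76), the transcription factor Irf1 (0.62) and Rtp4 (0.62) were low, at 7.28 to 9.51 CPM in positive cells.

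Promoter sequence is shown for Serpina3n, a gene of the rule, and for Socs3 and B2m, 1 gene each of the STAT3 and MHC class I lists. The windows, from RefSeq on GRCm38.p6, run from 250 bases before to 50 bases after the start. Socs3 and B2m were higher in positive cells, whereas Serpina3n was higher there by the rule that chose the cells. Capitals mark the STAT-type motif TTCNNNGAA or the interferon-stimulated motif GAAANNGAAA, searched on both strands.
Serpina3n (chr12:104406458-104406757, plus strand): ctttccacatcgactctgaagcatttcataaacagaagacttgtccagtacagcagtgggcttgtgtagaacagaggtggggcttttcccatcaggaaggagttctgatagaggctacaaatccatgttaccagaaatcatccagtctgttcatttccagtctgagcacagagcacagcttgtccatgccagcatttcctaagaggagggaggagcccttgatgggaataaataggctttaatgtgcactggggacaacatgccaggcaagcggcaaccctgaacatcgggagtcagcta
Socs3 (chr11:117969317-117969616, minus strand): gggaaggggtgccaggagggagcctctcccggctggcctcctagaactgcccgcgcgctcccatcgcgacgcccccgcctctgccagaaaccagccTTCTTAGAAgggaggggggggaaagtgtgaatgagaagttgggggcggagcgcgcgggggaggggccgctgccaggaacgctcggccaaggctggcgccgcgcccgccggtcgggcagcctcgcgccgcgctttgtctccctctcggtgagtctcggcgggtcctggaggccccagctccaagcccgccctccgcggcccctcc
B2m (chr2:122147437-122147736, plus strand): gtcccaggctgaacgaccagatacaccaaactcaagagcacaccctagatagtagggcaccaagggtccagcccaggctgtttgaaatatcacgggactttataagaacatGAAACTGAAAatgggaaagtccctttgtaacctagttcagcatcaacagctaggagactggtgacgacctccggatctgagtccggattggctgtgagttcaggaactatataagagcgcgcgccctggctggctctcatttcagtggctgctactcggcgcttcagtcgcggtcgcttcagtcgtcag
The Serpina3n window held neither motif, Socs3 held 1 STAT-type match and B2m held 1 interferon-stimulated match. Over all 32851 promoter windows of the table, 8.30% held the STAT-type motif and 3.44% the interferon-stimulated motif. Of 25 genes (C4b, Serpina3n, B2m, H2-K1 and the 21 genes among the 15 largest ratios in either comparison above), 17 had at least 1 window. Some had more, such as Apoe and Snx10 with 3 each, so counts per gene are not set against the shares per window. Socs3 and Vamp8 held the STAT-type motif, and B2m and 1 of the 3 windows of Snx10 the interferon-stimulated motif. The windows of the MHC class I heavy chain genes H2-D1 and H2-K1 held neither, so B2m does not stand for its list. C4b, Ccnd2, Hist1h2ap, Cebpd, Neat1, Mdk, Tubb2b and Fxyd7 had no window.

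Disease-associated oligodendrocyte genes were the list with the largest pathway median. All 23 measured members lay above 0 in positive cells, 7 of them at least 2-fold, with a median of 0.57, and 0.58 without mixed cells. This list includes genes that earlier results of these libraries had already shown, so its direction is no independent support. Beyond Il33, Apoe, Klk6, Socs3 and H2-D1, Fxyd7 stood at 10.2 CPM in positive and 0.777 CPM in negative cells (1.39). The tetraspanins Cd63 and Cd9 had ratios of 0.50 and 0.43, and the metallothioneins Mt1 and Mt2 0.42 and 0.50. At 5 or more UMIs the list's median was 0.98, and 1.05 without mixed cells, where 12 of 22 members were at least 2-fold higher.

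Klk6 and Il33 mark 2 mature oligodendrocyte subtypes in the mouse nervous system, and each was more frequent in the cells with most C4b and Serpina3n. At their own depth, Klk6 was found in 74.1% and Il33 in 42.7% of ipsilateral cells with 5 or more UMIs of the pair. In negative cells these shares were 23.8% and 12.5%. Whether the 2 genes shared cells more often than their separate shares give was not tested. Klk6 and Il33 were both detected in 37.1% of cells with 5 or more UMIs of the pair (29.1 to 45.5), in 17.7% of all positive cells (13.9 to 22.1) and in 2.27% of negative cells (1.30 to 3.65). In the bins the shares with both were 2.27%, 3.88%, 6.74% and 37.1% at 0, 1, 2 to 4, and 5 or more UMIs. At least 5 UMIs of each gene were found in 20 of 143 cells with 5 or more UMIs of the pair. Taken singly, that many Klk6 UMIs were found in 40.6% of these cells and 5.38% of negative cells. For Il33 the shares were 29.4% and 1.56%. None of 706 negative cells held that many of each, which allows a share of up to 0.425% if a count of 0 is read as at most 3 counts, and up to 0.521% by the exact binomial interval. Klk6 alone was found in 37.1% and Il33 alone in 5.59% of the cells with 5 or more UMIs, and neither in 20.3%.

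Other subtype markers were less even. In the Klk6 list, the calcium-binding genes S100b and Anxa5 stood at 416 and 88.4 CPM in positive and 267 and 57.8 CPM in negative cells (0.63 and 0.57), while the actin-severing Gsn was -0.24. In the Il33 and Ptgds list, Ptgds, which makes prostaglandin D2, stood at 3422 CPM in positive and 2369 CPM in negative cells (0.53). Jph4 (0.74) was higher and Nkd1 (-0.32) and Opalin (-0.30) were lower. Fxyd6 was 0.93 with all cells and 0.22 without mixed cells. List medians were 0.37 for the Klk6 list and 0.18 for the Il33 and Ptgds list, and 0.19 and 0.24 without mixed cells.

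Reactive glia genes were low, and 9 of 18 listed were measured. All of these lay above 0 in positive cells, with a median of 0.39, and 0.53 over 6 members without mixed cells. Besides Anxa2, the intermediate filament Vim stood at 19.7 CPM in positive and 6.56 CPM in negative cells (1.09, and 0.65 without mixed cells). Gfap, the astrocyte filament, stood at 9.76 CPM in positive and 4.32 CPM in negative cells (0.66 and 0.70), while the astrocyte marker list had a median of 0.47 with all cells and 0.07 without mixed cells.

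Cholesterol synthesis was lower across nearly the whole pathway. Of 24 measured genes 23 lay below 0 in positive cells, with a median of -0.25, and without mixed cells 22 lay below 0 with a median of -0.26. None reached a 2-fold difference. Besides Hmgcs1, Idi1 stood at 241 CPM in positive and 329 CPM in negative cells (-0.44), although 18.8% of its words are shared with other genes. Fdps stood at 347 CPM in positive and 454 CPM in negative cells (-0.38), and Msmo1 at 338 CPM in positive and 442 CPM in negative cells (-0.38). At 5 or more UMIs the median was -0.44, and -0.49 without mixed cells. Srebf2, the transcription factor of the pathway, was -0.08 in all positive cells.

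Of 14 measured genes of lipid uptake and export 11 lay above 0, where 67.0% of all genes did, so the count is not read as a result. Apoe was the only member at least 2-fold higher in positive cells. Abca1, a cholesterol exporter, stood at 23.6 CPM in positive and 11.5 CPM in negative cells (0.79, and 0.70 without mixed cells). Lrp1 and Fabp7, which precursors also express, were 0.91 and 0.90, and 0.13 and 0.00 without mixed cells. The list median of 0.20 was 0.13 without mixed cells.

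Myelin structure genes were slightly lower in positive cells. Of 20 genes outside the gate 16 lay below 0, with a median of -0.11, and without mixed cells 12 lay below 0 with a median of -0.06. Cnp was -0.19, Opalin -0.30 and Tspan2 -0.25. The tetraspanin Cd9 was the largest exception, at 1308 CPM in positive and 966 CPM in negative cells (0.43). These differences were small beside those of Apoe or Socs3.

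Immediate early genes all lay above 0, by a median of 0.25 over 20 genes, with no steady order over the bins. The median was 0.27, 0.22 and 0.19 at 1, 2 to 4, and 5 or more UMIs, and 0.17, 0.35 and 0.05 without mixed cells. Atf3, a stress-induced transcription factor, stood apart at 60.7 CPM in positive and 18.1 CPM in negative cells. Nr4a1 (0.51) was -0.03 without mixed cells, and Zfp36 (0.48) and Junb (0.45) were 0.52 and 0.48. Among growth arrest genes the Gadd45 family was higher. Gadd45g stood at 99.0 CPM in positive and 42.5 CPM in negative cells (1.13, and 1.06 without mixed cells), Gadd45a at 22.4 CPM in positive and 8.94 CPM in negative cells (0.98) and Gadd45b at 55.1 CPM in positive and 36.2 CPM in negative cells (0.54). The list median was 0.12.

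Several other pathway lists lay near the median of all genes. Complement genes other than C4b had a median of 0.06, with Cd59a, an inhibitor of the membrane attack complex, at 0.19. Clu was 0.84 with all cells and 0.02 without mixed cells. Serpins other than Serpina3n had a median of 0.02, and Serpine2, a precursor gene, was 1.06 with all cells and 0.11 without mixed cells. NF-kB and interleukin-1 pathway genes, heat shock genes, the integrated stress response, hypoxia-inducible genes and lysosome genes had medians of 0.06, 0.03, 0.02, 0.05 and 0.07. Precursor and endothelial markers had the largest medians of any list, 0.97 and 0.82 with all cells, and 0.11 and 0.07 without mixed cells. Neuroblast and neuron markers had a median of 0.54 (10 of 11 above 0), and 0.04 without mixed cells. Markers of newly formed oligodendrocytes had a median of 0.48 (10 of 10 above 0), and 0.18 without mixed cells (8 of 10 above 0). The endothelial median rested in part on single cells, with 58.8% of the Ly6a UMIs of positive cells in 1 cell.

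**Figure D3:**
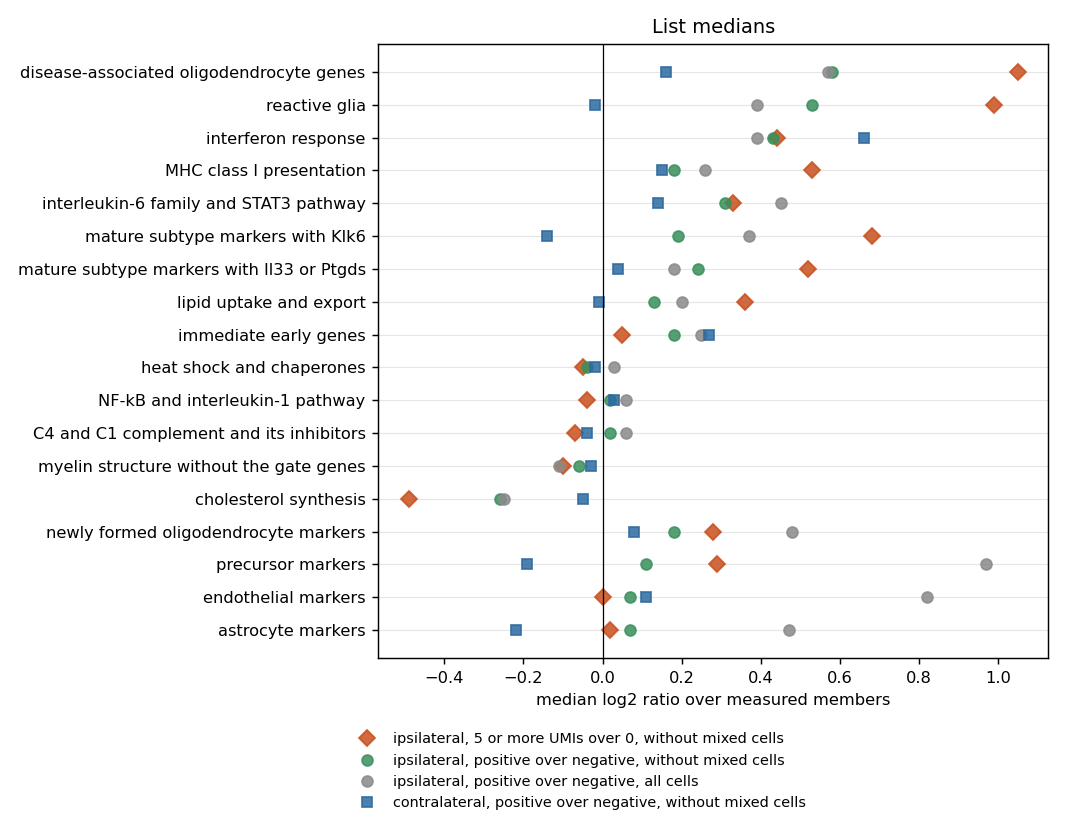
Median log2 ratio (x axis) over the measured members of 18 gene lists (y axis), for ipsilateral cells with 5 or more UMIs over 0 UMIs without mixed cells (diamonds), ipsilateral positive over negative cells without mixed cells (green circles) and with all cells (grey circles), and contralateral positive over negative cells without mixed cells (squares). Disease-associated genes lie farthest right among the diamonds at 1.05 and cholesterol synthesis farthest left at -0.49; precursor markers lie at 0.97 only with all cells.

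Thinned to 10000 UMIs per cell, the share of cells was higher in positive cells for some leading transcripts and overlapped for others. Socs3 was found in 59.6% of positive and 28.5% of negative cells, and in 23.1% of neuroblast-gated cells. H2-D1 was found in 56.2% of positive and 35.6% of negative cells, and in 29.6% of neuroblast-gated cells. Klk6 was found in 34.3% of positive and 13.8% of negative cells, and in 1.81% of neuroblast-gated cells. For Il33 the shares were 19.7% of positive, 5.67% of negative and 0.361% of neuroblast-gated cells. The intervals of positive and negative cells did not overlap for these 4 genes. They overlapped for Ccnd2, at 11.0% of positive (7.91 to 14.7) and 9.36% of negative cells (7.23 to 11.9). They also overlapped for Ifi27l2a, at 10.1% of positive (7.18 to 13.7) and 8.44% of negative cells (6.42 to 10.8). Cxcl12, at 13.8% of positive (10.4 to 17.8) and 18.7% of negative cells (15.8 to 21.9), overlapped as well. So did Ptgds, at 90.2% of positive (86.6 to 93.1) and 84.8% of negative cells (81.8 to 87.5). Neuroblast-gated cells gave 98.6% for Ccnd2 and 1.08% for Ifi27l2a. Median depths before thinning were 28810 UMIs in positive, 29230.5 UMIs in negative and 12240 UMIs in neuroblast-gated cells. At their own depth, Socs3 was found in 73.4% of positive and 42.4% of negative cells, H2-D1 in 77.3% of positive and 53.5% of negative cells, Klk6 in 47.6% of positive and 23.8% of negative cells and Il33 in 27.7% of positive and 12.5% of negative cells. Apoe was found in 70.8% of positive and 50.8% of negative cells after thinning, but neuroblast-gated cells gave 66.8%, so its share is not read as expression. For Socs3 the neuroblast-gated interval (18.3 to 28.5) overlapped that of negative cells (25.1 to 32.2). The same held for H2-D1 (24.3 to 35.4 and 31.9 to 39.4), so the shares of both genes in negative cells are not read as expression either. Summed levels of these genes were not corrected for free RNA.

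Positive ipsilateral cells differed among themselves by which transcript of the pair they held. H2-D1, B2m, Apoe and Hmgcs1 differed from cells with neither transcript where C4b was present, and in cells with Serpina3n alone their counting intervals overlapped those of cells with neither. H2-D1 stood at 276 CPM with both, 291 CPM with C4b alone, 92.1 CPM with Serpina3n alone and 99.9 CPM with neither. B2m stood at 160 CPM with both, 169 CPM with C4b alone, 70.5 CPM with Serpina3n alone and 73.4 CPM with neither. Apoe stood at 1268 CPM with both, 740 CPM with C4b alone, 202 CPM with Serpina3n alone and 209 CPM with neither. Hmgcs1 was lower in the groups with C4b, at 721 CPM with both, 823 CPM with C4b alone, 1240 CPM with Serpina3n alone and 1195 CPM with neither. Over cells with neither, the interferon list median was 0.46 with both, 0.43 with C4b alone and 0.02 with Serpina3n alone. In the same order the MHC class I medians were 0.43, 0.16 and 0.02, and the cholesterol synthesis medians -0.37, -0.33 and 0.06. Those of all genes were 0.08, 0.01 and 0.04. Socs3 was higher in every positive group, at 297 CPM with both, 204 CPM with C4b alone, 225 CPM with Serpina3n alone and 77.7 CPM with neither. Klk6 was highest with both, at 345 CPM, and stood at 38.6 CPM with C4b alone, 74.7 CPM with Serpina3n alone and 41.7 CPM with neither. Il33 was also highest with both, at 118 CPM, and stood at 35.3 CPM with C4b alone, 15.9 CPM with Serpina3n alone and 10.1 CPM with neither. With Serpina3n alone, 1 cell held 68.3% of the Il33 UMIs and 26.9% of the Klk6 UMIs.

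**Figure D4:**
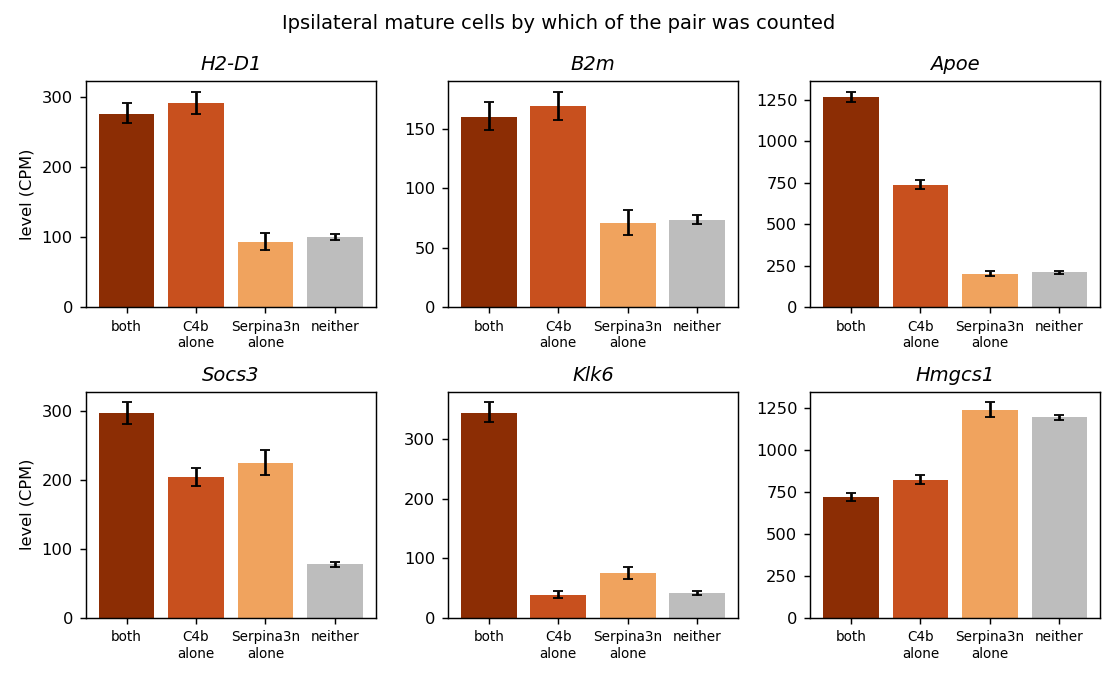
Level in CPM (y axis, linear, from 0) of 6 genes in ipsilateral mature cells with both C4b and Serpina3n (143 cells), C4b alone (146 cells), Serpina3n alone (72 cells) and neither (706 cells). Bars are summed levels and error bars exact Poisson 95% intervals; H2-D1, B2m and Apoe are high and Hmgcs1 low in the left pair of bars, and Socs3 is high in all but the last.

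Cells with C4b alone were then set directly against cells with Serpina3n alone, a comparison chosen after the levels were seen. Of 8636 genes 22 were at least 2-fold higher with C4b alone (0.255%) and 33 at least 2-fold lower (0.382%), and 44.0% lay above 0. Cholesterol synthesis was lower with C4b alone, with 23 of 24 genes below 0 and a median of -0.38, against -0.03 over all genes. Of 18 measured interferon genes 15 lay above 0, with a median of 0.54. Among MHC class I genes 8 of 13 lay above 0, and H2-D1 (1.61), H2-K1 (1.97) and B2m (1.20) were at least 2-fold higher. Apoe (1.85) and Ifi27l2a (1.93) were higher too, with 25.5% of the Ifi27l2a UMIs of cells with C4b alone in 1 cell. Socs3 was -0.14 and Cebpd -0.01. Markers of other cell types moved with this split. The precursor list had a median of -0.76 (9 of 10 genes below 0) and -0.22 without mixed cells, and the astrocyte list, whose cells make much Apoe, had 0.97 (6 of 6 measured above 0) and 0.43 without mixed cells. Their part in the differences was not tested further.

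Without mixed cells, which were 10.3% of cells with C4b alone and 15.3% of cells with Serpina3n alone, the cholesterol median was -0.52 and the interferon median 0.63. H2-D1 was then 1.68 and Apoe 1.72. The same comparison was made at exactly 1 UMI of the pair, in 93 cells with C4b and 36 cells with Serpina3n. There 22 of 24 cholesterol genes lay below 0 with a median of -0.39. Over all genes the median was -0.02, and 45.9% lay above 0. Of 7348 genes, 33 were at least 2-fold higher with C4b and 82 at least 2-fold lower. H2-D1 stood at 160 CPM with C4b and 81.5 CPM with Serpina3n. Apoe stood at 489 CPM with C4b and 190 CPM with Serpina3n. Hmgcs1 stood at 903 CPM with C4b and 1335 CPM with Serpina3n. These levels did not overlap in counting error, while the median over MHC class I genes was 0.01, with 6 of 12 above 0. At 1 UMI the precursor median was -1.27 and the astrocyte median 1.11.

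Shares of cells with a UMI were less far apart than the levels. After thinning, H2-D1 was found in 50.7% of cells with C4b alone (42.2 to 59.2) and 39.4% of cells with Serpina3n alone (28.0 to 51.7), which overlap. Its neuroblast share was 29.6% (24.3 to 35.4). Median depths were 28861 UMIs with C4b alone, 31286.5 UMIs with Serpina3n alone and 12240 UMIs in neuroblast-gated cells.

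In summed levels contralateral positive cells shared part of this pattern, while thinned shares of Apoe, Socs3 and H2-D1 overlapped those of negative cells. Of 10290 genes, 59 were at least 2-fold higher than in contralateral negative cells (0.573%) and 1 at least 2-fold lower (0.00972%). Without mixed cells 9 (0.0960%) and 4 (0.0427%) of 9375 were. Apoe stood at 324 CPM in positive and 131 CPM in negative contralateral cells (1.28, and 1.04 without mixed cells). Socs3 stood at 53.2 CPM in positive and 30.9 CPM in negative cells (0.70), but 33.3% of its positive UMIs came from 1 cell, and the ratio was 0.05 without mixed cells. H2-D1 stood at 49.9 CPM in positive and 31.0 CPM in negative cells (0.61), with 28.1% from 1 cell, and 0.23 without mixed cells. Il33 was -0.13 and Klk6 0.36. After thinning, Apoe was found in 46.3% of positive (34.0 to 58.9) and 39.0% of negative contralateral cells (34.8 to 43.4). Neuroblast-gated contralateral cells gave 59.8% for Apoe. Socs3 was found in 22.4% of positive (13.1 to 34.2) and 15.1% of negative cells (12.2 to 18.5). H2-D1 was found in 20.9% of positive (11.9 to 32.6) and 15.7% of negative cells (12.7 to 19.2). The interferon median of 0.40, and 0.66 without mixed cells, included Ifit1 at 26.8 CPM in positive and 0.558 CPM in negative cells, of which 1 cell held 96.9%. The cholesterol median was -0.10, and -0.05 without mixed cells. The disease-associated median was 0.35, and 0.16 without mixed cells.

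Between libraries, the counts of genes past 2-fold are not comparable for positive and negative cells, since the 67 contralateral positive cells give noisier ratios than the 531 negative ones. In all, 40 of 10163 genes were at least 2-fold higher in ipsilateral than contralateral positive cells (0.394%) and 12 lower (0.118%). In negative cells there were 5 higher (0.0448%) and 5 lower (0.0448%) of 11152. The ipsilateral over contralateral ratio of disease-associated genes had a median of 0.74 in positive cells (20 of 22 above 0) and 0.15 in negative cells (16 of 22 above 0). Over all genes the medians were -0.02 in positive cells (45.9% above 0) and -0.04 in negative cells (38.6% above 0). For cholesterol synthesis the medians were -0.13 in positive and 0.04 in negative cells. Summed levels of some genes, not corrected for free RNA, differed between sides in cells without the pair too. The ratio of H2-D1 was 2.17 in positive and 1.54 in negative cells, and that of Socs3 was 2.11 in positive and 1.20 in negative cells. B2m was 1.75 in positive and 1.19 in negative cells. Others differed in positive cells while lying near 0 or below it in negative cells, with Il33 at 1.95 in positive and -0.41 in negative cells, Klk6 at 1.81 in positive and 0.24 in negative cells, and Atf3 at 2.02 in positive and 0.07 in negative cells. These positive groups differ in their UMIs of the pair, since 143 of 361 ipsilateral and 1 of 67 contralateral positive cells held 5 or more. Thinned shares of neuroblast-gated cells were higher ipsilaterally too, with overlapping intervals. For H2-D1 they were 29.6% ipsilaterally and 19.6% contralaterally, for Socs3 23.1% and 14.6%, and for B2m 11.2% and 9.30%. The part of free RNA in the side differences of negative cells was not tested.

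**Figure D5:**
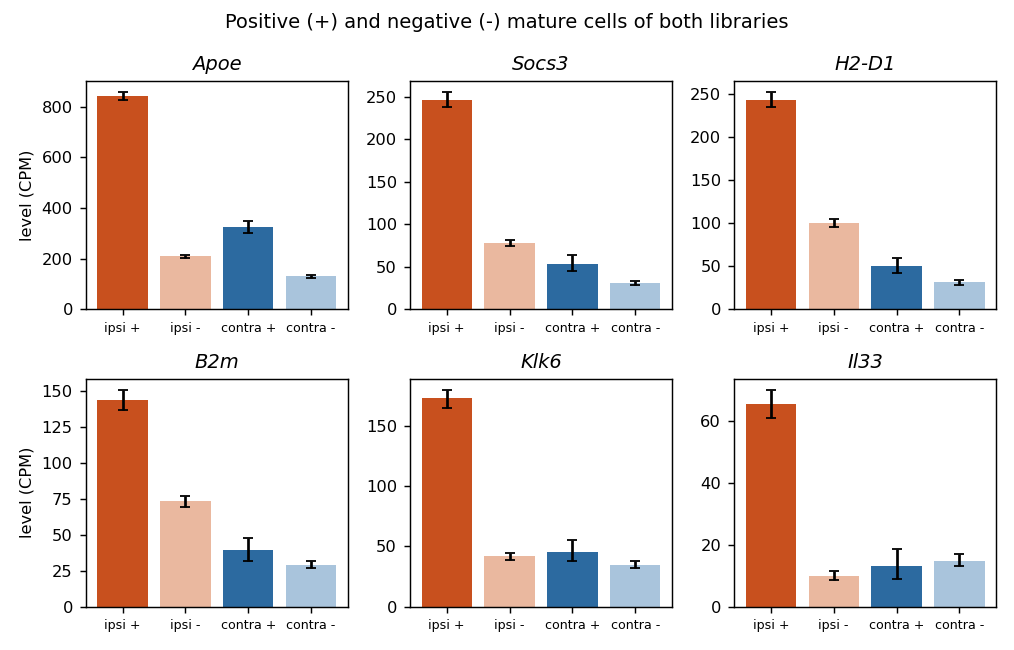
Level in CPM (y axis, linear, from 0) of 6 genes in positive (+) and negative (-) mature cells of the ipsilateral library (orange, left) and contralateral library (blue, right). Bars are summed levels, not corrected for free RNA, and error bars exact Poisson 95% intervals. H2-D1, Socs3 and B2m are higher in ipsilateral than contralateral negative cells too, while Klk6 and Il33 stand out in ipsilateral positive cells.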

How the data were processed

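The deposited matrices hold counts of UMIs per gene and barcode, made by the authors with Cell Ranger 3.1.0 on mm10, per the submitters' processing notes; the sources used here name neither alignment options nor an annotation. No column belonged to another series. From these counts, cells were filtered and gated as described, UMIs were summed per group, scaled to CPM and compared as log2((CPM + 5)/(CPM + 5)) with numpy 2.4.6. Exact Poisson and binomial 95% intervals came from scipy 1.17.1 and cover counting error only. List members needed 20 summed UMIs over both groups, other genes 50. Named genes were the 15 largest and 15 smallest ratios among genes with at least 20 CPM in a group, and up to 6 per list with the largest absolute ratio; other list members are named for their role and were picked after their values were seen. Mitochondrial, ribosomal, predicted and clone-named genes were left out. The members and lists were chosen with earlier results of these data known. The mixed limit, the ratios at 5 or more UMIs and the direct comparison of cells with C4b alone and Serpina3n alone were chosen after values of these data were seen. Neuroblast-gated cells held at least 20 UMIs per 10000 of Dcx, Dlx1, Dlx2, Dlx6os1, Sox11 and Stmn2 and under 5 of the gate genes. Doublets, called with Scrublet in scanpy 1.11.5 at an expected rate of 0.05, were kept and left out as an alternative. Shared 31-base words were taken from GENCODE transcripts, and the summing steps were tested on simulated data.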

Additional observations from a re-analysis of the deposited data

Results flagged for a closer look

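The log2 ratio of Atf3 had opposite signs in the libraries, but contralateral shares of cells did not show a lower Atf3 in positive cells. After thinning they overlapped, at 7.46% of positive (2.47 to 16.6) and 7.96% of negative contralateral cells (5.77 to 10.6). At their own depth they were 17.9% of positive and 13.2% of negative cells. The log2 ratio of Atf3, positive over negative cells, was 1.51 ipsilaterally and -0.44 contralaterally. Contralaterally it stood at 11.1 CPM in positive and 16.9 CPM in negative cells, and 1 cell held 29.6% of the positive UMIs. Arhgef19 was -0.49 ipsilaterally and 0.34 contralaterally, at 20.2 CPM in positive and 14.9 CPM in negative contralateral cells. These were the only 2 of 30 named genes with at least 0.3 in opposite directions, and the difference between libraries was not tested.

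Barcodes outside the filters, which no comparison uses, also held the transcripts. C4b or Serpina3n was found in 7.04% of 270 such ipsilateral barcodes (19 barcodes, 4.29 to 10.8) and 3.27% of 153 contralateral ones (5 barcodes, 1.07 to 7.46), and the intervals overlap.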

How the results depend on the processing

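The medians of the MHC class I, interferon, STAT3, disease-associated, microglia and myelin lists kept their sign under the 17 alternatives, while their sizes changed. Of these alternatives, leaving out mixed cells and requiring 5 UMIs were chosen after seeing the data. The ipsilateral share stayed above the contralateral one under the alternatives that changed which cells or UMIs were counted. Those on added CPM, minimum of summed UMIs, weighting or size factor cannot change a share. Genes at least 2-fold higher numbered 295 with 1 CPM added, 14 with 20 CPM added, 130 at 2 or more UMIs and at 5 or more, 32 without called doublets, 92 without cells holding a microglia UMI, 146 with Serpina3n alone deciding and 25 without mixed cells. Genes at least 2-fold lower numbered 1 with 1 CPM added, at 2 or more UMIs, after thinning and with Serpina3n alone deciding, and 9 at 5 or more. Where an alternative asks for more UMIs or for 1 gene, cells that fail it but are positive otherwise leave the denominator too, so these shares differ from shares of all mature cells. The ipsilateral and contralateral shares were 24.7% and 2.75% at 2 or more UMIs, 22.9% and 3.95% after thinning, and 16.8% and 0.188% at 5 or more. With Serpina3n alone deciding they were 23.3% and 2.75%. With C4b alone deciding the ipsilateral share was 29.0%, and the contralateral share stayed within the interval of its main value, 8.79 to 14.0. The disease-associated median was 0.95 and 0.45 with 1 and 20 CPM added, 0.73 and 0.98 at 2 and 5 or more UMIs, 0.89 after thinning, 0.71 with cells weighted equally, and 0.69 and 0.71 with C4b or Serpina3n alone deciding. The MHC class I median was 0.49 with 1 CPM added, 0.46 after thinning and 0.45 at 5 or more UMIs. The interferon median was 0.73 and 0.15 with 1 and 20 CPM added, the STAT3 median 0.20 with 20 CPM added and 0.12 with no minimum, and the microglia median 0.35 with 1 CPM added. The myelin median was -0.17 at 2 or more UMIs, -0.19 at 5 or more, -0.06 without called doublets and without mixed cells, and -0.18 with a median-ratio size factor. Of the 15 largest ratios, 9 stayed at least 2-fold without mixed cells and 10 after thinning or without called doublets. Hist1h2ap was -0.56 after thinning and Ly6c1 -0.19 without mixed cells; the cause was not tested. No paired analysis was possible because each side is 1 library, and for the same reason no replicate could be left out. Depth limits genes under about 5 CPM, whose ratios the added 5 CPM sets in large part.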
